A study of Mus musculus with 4 samples.

Results

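Peaks of TOP2B cleavage complexes were examined at 10 oligodendrocyte lineage genes in cultured mouse cortical neurons. The genes were Mbp, Mog, Mag, Mobp, Cnp, Cspg4, Pdgfra, Olig1, Olig2 and Sox10, all 10 of which were found among the 21631 protein-coding genes of the RefSeq table of build GRCm38.p6 on the 19 autosomes and X. A peak was assigned to a gene when its summit lay in the gene's span or within 20 kb of it. By this rule 19 of the 35505 peaks on those chromosomes (0.0535%, 95% Wilson interval 0.0343 to 0.0836) were assigned, to 8 of the 10 genes, and Mog and Olig2 had none.

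The cultures were dissociated wild-type cortical neurons of embryonic day 16 Swiss-Webster mice. All were treated with etoposide at 50 µM for 30 min, and there was no untreated group. Etoposide blocks religation by type II topoisomerases, so that the enzyme stays covalently bound to the DNA ends it has cut. The labels give 2 TOP2B chromatin immunoprecipitation (ChIP) libraries and 2 input libraries, and the values used here come from a single peak list pooled over libraries. No value therefore has a standard deviation or an n, the depth of each library is unknown, and no test between conditions or replicates could be made. The list holds no expression values, so how many oligodendrocyte lineage cells the cultures contained, or whether these genes were transcribed, was not measured here. In a pooled list, a peak present in a minority of cells cannot be told apart from a weaker peak in all of them.

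Oligodendrocytes are the myelinating glia of the central nervous system. They arise from precursor cells that carry the receptor encoded by Pdgfra and the proteoglycan encoded by Cspg4, under transcription factors encoded by Olig1, Olig2 and Sox10. On differentiation they switch on genes for myelin proteins, such as Mbp, Mog, Mag, Mobp and Cnp. TOP2B is the type II topoisomerase of postmitotic neurons and passes one DNA duplex through a transient cut in another. Most of these 10 genes are known as markers that neurons express little or not at all.

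Across the 10 genes, peaks were ordinary members of the list in height. Fold enrichment over control, the authors' value for each peak, ran from 2.20 to 3.46 at the 19 summits, with a median of 2.94 (95% interval of the median from ranks, 2.59 to 3.11). The median of all 35505 peaks was 2.77, with quartiles of 2.49 and 2.94. The whole number of ChIP fragments stacked at each summit could be reconstructed from the deposited fold and p. It ran from 13 to 19 with a median of 16, against a median of 15 in the whole list, of which 91.5% held 13 to 19. The control level was 4.78 fragments at 16 of the 19 summits, the value that 71.1% of the list shared. At these 16 summits the fold follows from the fragment number alone, so equal numbers of fragments give equal folds. Since the highest summit (19 fragments, exact 95% Poisson interval 11.4 to 29.7) and the lowest (13 fragments, 6.92 to 22.2) had overlapping intervals, the order of the summits within the set is not resolved by counting alone. These intervals cover counting error only.

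**Figure D1:**
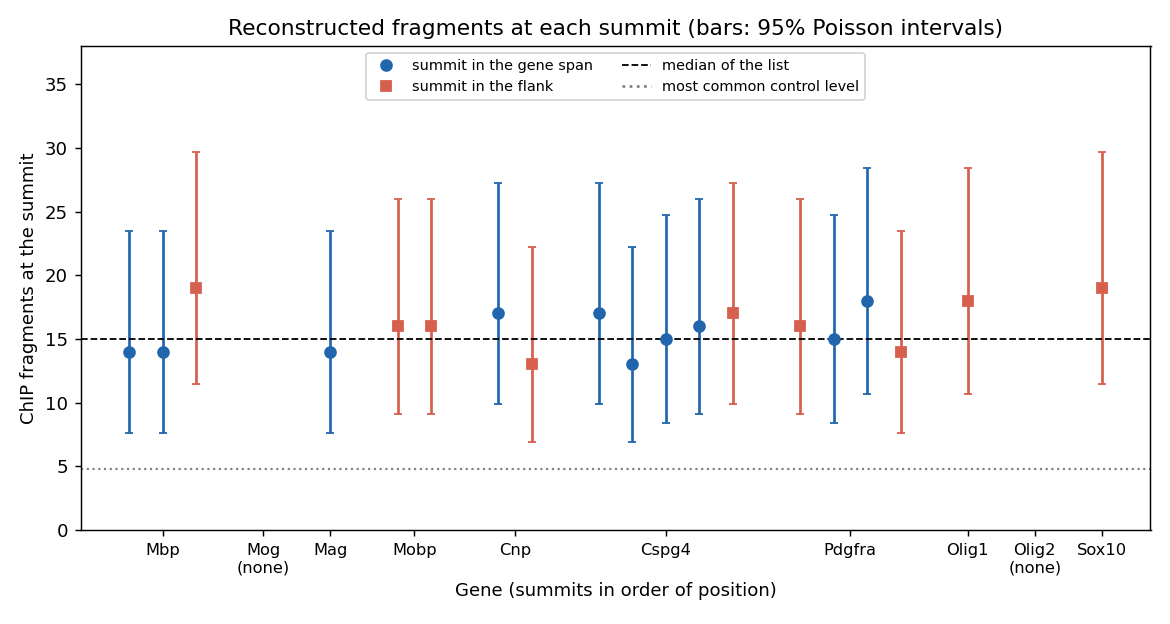
ChIP fragments reconstructed at each of the 19 summits, by gene and in order of position, with exact 95% Poisson intervals; circles are summits in the gene span and squares are summits in the flank. The points lie between 13 and 19, around the list median of 15 (dashed line) and above the control level of 4.78 (dotted line), and all intervals overlap.

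A peak within 20 kb is common in this list. Beside the 8 of 10 lineage genes, 64.0% of protein-coding genes had at least 1 summit by the same rule. Inside the span a summit was found in 5 of the 10 genes (Mbp, Mag, Cnp, Cspg4 and Pdgfra), beside 36.6% of protein-coding genes. Within 1 kb of a gene end it was found in 2 of the 10 (Cnp and Cspg4), beside 8.30% of protein-coding genes, and both of these summits had a deposited q of 0.05 or less, beside 2.10% of protein-coding genes. Summits with a deposited q of 0.05 or less lay in the windows of 6 of the 10 genes (Mbp, Cnp, Cspg4, Pdgfra, Olig1 and Sox10), beside 27.6% of protein-coding genes. In the span, such a summit was found in 3 of the 10 (Cnp, Cspg4 and Pdgfra), beside 14.3%. Of the 19 summits themselves, 6 (31.6%) had a q of 0.05 or less, beside 23.4% of the list, and the other 13 had a q above 0.05. The windows of the lineage genes, the span with 20 kb on either side, had a median length of 56.4 kb, close to the 57.3 kb of all protein-coding genes. The genes are not replicates of a condition, and these shares were not tested.

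**Figure D2:**
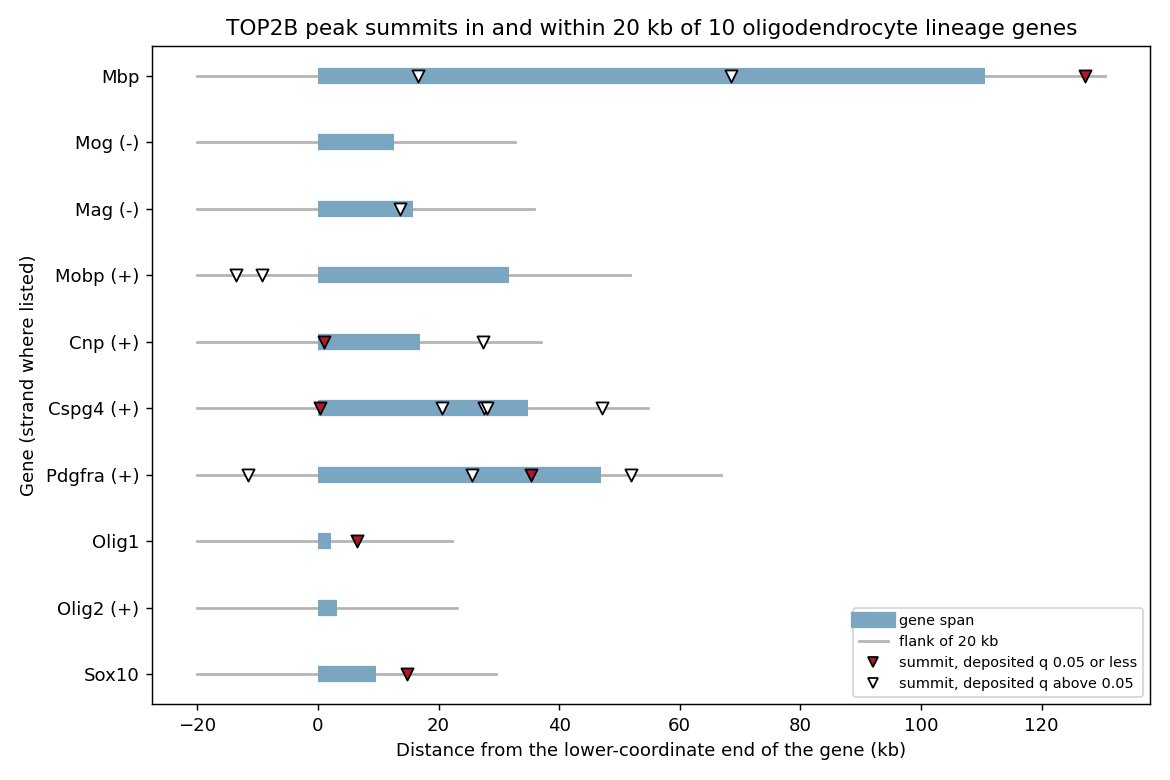
Map of the 10 genes, each drawn from its lower-coordinate end, with distance in kb on the horizontal axis, the gene span as a thick bar, the 20 kb flanks as thin lines and each summit as a triangle (filled for a deposited q of 0.05 or less, open above it). Cspg4 has 5 summits and Pdgfra 4, Mog and Olig2 have none, and the summits of Mobp, Olig1 and Sox10 all lie outside the span.

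Among the myelin protein genes, Mbp is the longest and had 3 summits. Mbp encodes myelin basic protein, which holds together the cytoplasmic faces of compact myelin. It spans 82475091 to 82585637 on chromosome 18, 110.5 kb. The summit at 82491656, 16.6 kb inside the lower-coordinate end, had a fold of 2.20 from 14 fragments over a control level of 5.82, with a q of 0.320. The summit at 82543534, 68.4 kb inside that end, also held 14 fragments but over the common level of 4.78, for a fold of 2.59 and a q of 0.177. The third was the strongest, at 82602280, with 19 fragments, a fold of 3.46 and a q of 0.0102. It lay 16.6 kb beyond the upper end of Mbp and inside Zfp236, a zinc finger gene, so the best-supported summit assigned to Mbp falls in its neighbour. Mbp belongs to the quintile of protein-coding genes with the longest windows, of which 50.1% had 3 or more summits.

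Cnp, which encodes a cyclic nucleotide phosphodiesterase of non-compact myelin, had a summit just inside its start. The gene spans 100574909 to 100591875 on chromosome 11, on the plus strand. Its summit at 100575860, 951 bp inside the start, held 17 fragments, with a fold of 3.11 and a q of 0.0390. The peak, from 100575810 to 100575999, had the minimum width of the list, 190 bp. A weaker summit of 13 fragments (fold 2.42, q 0.272) lay at 100602299, 10.4 kb beyond the other end of Cnp and inside Dnajc7, a chaperone gene whose span overlaps that end.

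Mag encodes an adhesion protein of the myelin membrane that faces the axon, and spans 30899175 to 30914922 on chromosome 7, on the minus strand. Its only summit, at 30912846, lay 2076 bp inside the start and held 14 fragments, with a fold of 2.59 and a q of 0.177. The peak was wide for its height. It covered 411 bp, from 30912665 to 30913075, more than 97.3% of the list, whose median width was 222 bp. In height it exceeded only 29.2% of the list, and a further 13.7% had the same fold.

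Mobp, which encodes myelin-associated oligodendrocyte basic protein, had no summit in its span from 120149742 to 120181488 on chromosome 9. Its 2 summits, at 120136120 and 120140446, lay 13.6 kb and 9.30 kb upstream of the start and 4326 bp apart. They had the same values, 16 fragments, a fold of 2.94 and a q of 0.0675. Both were nearer to Rpsa, a ribosomal protein gene 3.75 kb and 8.08 kb away, than to Mobp, and the first lay inside the noncoding RNA gene Gm5922. A stronger summit of 19 fragments (fold 3.46), at 120127217 and 22.5 kb from Mobp, fell just beyond the 20 kb limit.

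Mog encodes a glycoprotein of the outermost myelin layer and is used as a marker of mature oligodendrocytes. No summit lay in its span, 37010740 to 37023398 on chromosome 17, or within 20 kb. The nearest, at 36988802 in H2-M5, a gene of the major histocompatibility complex, was 21.9 kb away, with 16 fragments, a fold of 2.94 and a q of 0.0675. Of all protein-coding genes, 34.4% lay farther from a summit than Mog did. In the 500 kb on either side of its window there were 9 summits, the fewest around any of the 10 genes.

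Cspg4 carried more summits than any other of the 10 genes. It encodes the chondroitin sulphate proteoglycan by which oligodendrocyte precursors are recognized, and is also expressed by pericytes of blood vessels. The gene spans 56865104 to 56899870 on chromosome 9, on the plus strand, and had 4 summits in the span and 1 in the flank. That is 6.69 summits per 100 kb of window (exact 95% Poisson interval 2.17 to 15.6), higher than 96.1% of protein-coding genes. A count of 5 or more was found in 4.21% of the genes in the same quintile of window length.

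The first of these summits, at 56865482, lay 378 bp inside the start of Cspg4. It held 17 fragments, with a fold of 3.11 and a q of 0.0390. The peak covered 520 bp, from 56865205 to 56865724, and was wider than 99.5% of the list and the widest of the 19. The summit at 56885694 held 13 fragments (fold 2.42, q 0.272). Those at 56892588 and 56893155, near the other end of the gene, held 15 (fold 2.77, q 0.110) and 16 fragments (fold 2.94, q 0.0675). They were 567 bp apart, and in the whole list 1.21% of summits had another that close. The flank summit at 56912246, between Cspg4 and Snx33, held 17 fragments, as many as the one at the start. Its control level of 6.46 was the highest of the 19, and its fold was accordingly lower, at 2.41 (q 0.177).

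The promoters of Cspg4 and Cnp are shown because these were the 2 genes with a summit within 1 kb of the start. That of Mobp is shown for comparison, as a promoter whose nearest peak was 8.92 kb away. Sequences are from RefSeq, build GRCm38.p6, and run 5′ to 3′ on the gene's strand from 250 bases before to 50 bases after the start. They lie at chr9:56864854-56865153 (Cspg4), chr11:100574689-100574988 (Cnp) and chr9:120149492-120149791 (Mobp). Capitals mark matches, on either strand, to ACAAAG, the core bound by SOX factors.
Cspg4 promoter: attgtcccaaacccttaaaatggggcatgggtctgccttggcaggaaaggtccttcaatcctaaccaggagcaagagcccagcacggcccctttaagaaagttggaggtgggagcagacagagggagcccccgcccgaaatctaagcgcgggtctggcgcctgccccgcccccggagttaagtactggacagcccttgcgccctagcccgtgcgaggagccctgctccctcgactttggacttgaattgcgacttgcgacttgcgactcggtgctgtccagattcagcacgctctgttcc
Cnp promoter: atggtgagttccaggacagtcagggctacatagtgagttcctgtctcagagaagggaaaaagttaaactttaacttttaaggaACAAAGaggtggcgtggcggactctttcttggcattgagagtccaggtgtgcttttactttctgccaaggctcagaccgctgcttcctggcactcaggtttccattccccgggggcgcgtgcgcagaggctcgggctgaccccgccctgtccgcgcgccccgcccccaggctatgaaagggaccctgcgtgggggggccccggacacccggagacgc
Mobp promoter: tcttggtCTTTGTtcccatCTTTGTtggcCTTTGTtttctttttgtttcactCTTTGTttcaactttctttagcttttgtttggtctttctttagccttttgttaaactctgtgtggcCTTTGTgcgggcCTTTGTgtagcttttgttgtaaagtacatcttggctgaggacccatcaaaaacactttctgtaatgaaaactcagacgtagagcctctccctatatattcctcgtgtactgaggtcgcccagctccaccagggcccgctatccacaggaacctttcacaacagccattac

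No peak interval overlapped a promoter window of the 7 members listed in that table (Mog, Mag, Mobp, Cnp, Cspg4, Pdgfra and Olig2), and over all 32619 promoter windows 1.23% were overlapped. The gap from promoter window to peak was 52 bp at Cspg4 and 822 bp at Cnp. At Mag it was 1197 bp from the nearest of its 3 listed promoters. It was 12.3 kb at Pdgfra, 34.5 kb at Mog and 50.7 kb at Olig2. The promoters of Cspg4 and Cnp each held 17 CpG dinucleotides in 300 bases, against a median of 7 over all promoters (quartiles 3 and 20). Olig2, which had no summit, held 25, Mobp and Pdgfra held 5 each, Mog held 3, and the promoters of Mag held 3 to 6.

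The SOX core occurred 6 times in the Mobp promoter, each time as the reverse complement CTTTGT. It occurred in the Cnp promoter and in 2 overlapping promoters of Mag, and in no other member promoter. Over all promoters 18.7% held at least 1 match, and the Mobp promoter was the only one of 32619 with 6 or more, a count made after the match was seen. Neither the E-box CAGCTG nor the AP-1 site TGANTCA matched any of these member promoters. They were found in 16.4% and 7.85% of all promoters. These matches describe letters in a window and are not measured binding sites.

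Pdgfra, which encodes the alpha receptor for platelet-derived growth factor that drives division of oligodendrocyte precursors, had 4 summits. It spans 75151322 to 75198206 on chromosome 5, on the plus strand. The strongest lay inside the span at 75186603, 11.6 kb before the gene's upper end, with 18 fragments, a fold of 3.29 and a q of 0.0208. The other in the span, at 75176824, held 15 fragments over a control level of 5.17 (fold 2.59, q 0.140). In the flanks, the summit at 75139639, 11.7 kb upstream and in the noncoding RNA gene Gm19583, held 16 (fold 2.94, q 0.0675). That at 75203235, 5029 bp beyond the upper end, held 14 (fold 2.59, q 0.177). The density was 4.60 per 100 kb (1.25 to 11.8), higher than 89.5% of protein-coding genes. In the 500 kb on either side the density was 1.30 per 100 kb.

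The weaker of the Pdgfra span summits lay 7 bp before the microRNA gene Mir7025, which sits within Pdgfra on the same strand. Its peak, from 75176799 to 75176997, covered the whole hairpin at chr5:75176831-75176904. Of 1228 microRNA genes in the table, 18 (1.47%) were overlapped by a peak. The RNA sequences of the hairpin and of its 2 mature products are given because they are the stretch of Pdgfra under this peak for which a sequence was at hand. Capitals in the mature sequences mark the seed, bases 2 to 8.
Mir7025 hairpin: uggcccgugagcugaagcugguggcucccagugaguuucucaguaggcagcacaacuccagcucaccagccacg
mmu-miR-7025-5p: cGUGAGCUgaagcugguggcuccc
mmu-miR-7025-3p: cAGCACAAcuccagcucaccag

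The transcription factor genes are short, and none had a summit in its span. Olig1 and Olig2 encode related basic helix-loop-helix factors and are neighbours on chromosome 16, 41.1 kb apart, and Olig2 is needed to specify the lineage. The summit of Olig1, at 91276319, lay 4380 bp beyond the upper end of the gene (91269769 to 91271939) and outside any listed gene. It held 18 fragments, with a fold of 3.29 and a q of 0.0208, in a peak of the minimum width of 190 bp. No summit lay between the genes, and this Olig1 summit was also the nearest to Olig2 (91225550 to 91228677), at 47.6 kb. Of protein-coding genes, 20.1% were farther from a summit than Olig2. Both genes fall in the quintile of protein-coding genes with the shortest windows, of which 42.1% had a summit. The surroundings of Olig2 were not poor in summits, with 2.60 per 100 kb over the 500 kb on either side of its window.

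Sox10 encodes the high mobility group factor that activates myelin genes. It spans 79154913 to 79164490 on chromosome 15, and its summit at 79169729 lay 5239 bp beyond the upper end, inside the noncoding RNA gene Gm10863. It held 19 fragments, with a fold of 3.46 and a q of 0.0102, which ties it with the Mbp flank summit in Zfp236 as the highest of the 19. That fold exceeded 94.2% of the list. The 500 kb on either side of Sox10 held 36 summits, the most around any of the 10 genes.

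Flank summits were often as close to other genes. Of the 9 in flanks, 2 lay in a protein-coding gene, 3 in a noncoding RNA gene and 4 in no listed gene, and 5 were nearer to another protein-coding gene than to the lineage gene. Assignment by distance does not show which gene, if any, a peak belongs to. Of the 6 summits with a q of 0.05 or less, 3 lay in flanks, those of Mbp, Olig1 and Sox10. At the 20 kb limit, the outermost summit inside was that of Mbp, and the nearest outside were at 21.9 kb (Mog) and 22.1 kb (Mbp, 15 fragments, fold 2.77).

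The windows together held 2.78 summits per 100 kb over 684.2 kb (exact 95% Poisson interval 1.67 to 4.34). The windows of all protein-coding genes, merged, held 1.61 per 100 kb. The ratio was 1.72, with an interval of 1.04 to 2.69 that covers counting error only, and no test was made because the genes were chosen with earlier results known. Without Cspg4 the density was 2.30 per 100 kb, and without any other single gene it ran from 2.51 (without Pdgfra) to 3.01 (without Mog). The ratio was then 1.43 (0.779 to 2.39) without Cspg4, 1.56 (0.872 to 2.57) without Pdgfra and 1.68 (0.980 to 2.69) without Cnp, and these 3 intervals include 1. Leaving genes out was chosen after seeing the data. The 500 kb around the windows held 2.24 per 100 kb in all. By gene this density was above the 1.61 of protein-coding windows at 7 of the 10 and below it at 3, with 1.10 at Mbp, 0.900 at Mog and 1.30 at Pdgfra. The part of regional density in the difference was not tested. Spans held 3.52 per 100 kb (1.69 to 6.47), beside 1.71 for the merged spans of all protein-coding genes. Flanks held 2.25 (1.03 to 4.27), with an interval that overlaps that of the spans.

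**Figure D3:**
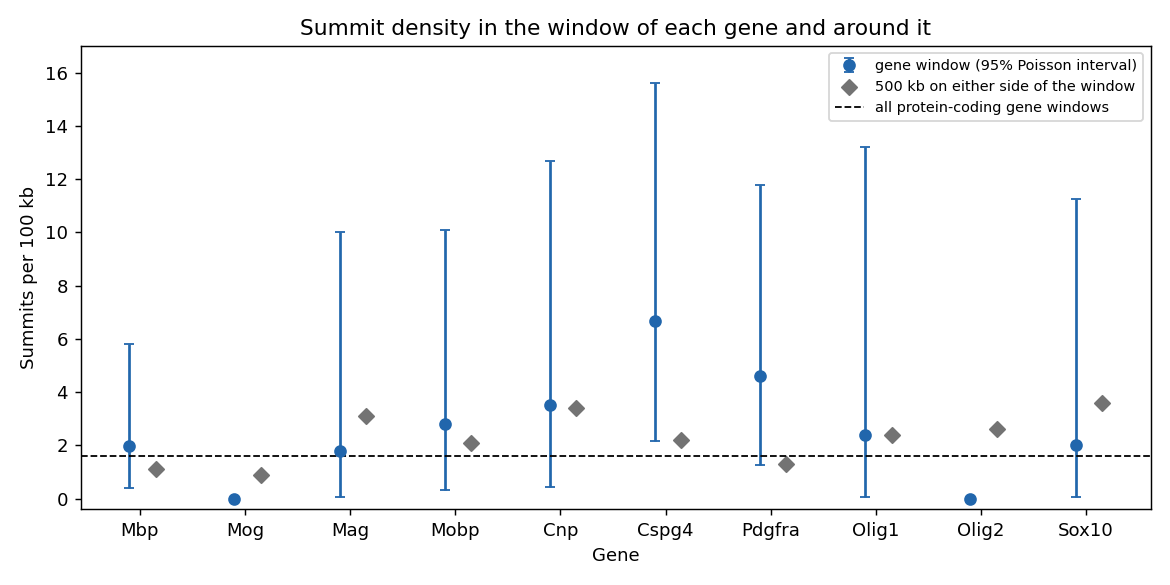
Summits per 100 kb in the window of each gene (circles, with exact 95% Poisson intervals where there was at least 1 summit), in the 500 kb on either side of that window (diamonds), and in the merged windows of all protein-coding genes (dashed line, 1.61). Cspg4 stands highest at 6.69, Mog and Olig2 are at 0, and only the Cspg4 interval lies above the dashed line.

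Other genes of the lineage were counted by the same rule. Of 15 other myelin and oligodendrocyte genes, 12 had a summit, beside 64.0% of protein-coding genes, and 3 (Aspa, Gal3st1 and Opalin) had none. A summit with a q of 0.05 or less was found for 3 of the 15 (20%), beside 27.6% of protein-coding genes. Nfasc, which encodes the adhesion protein neurofascin, had 11 summits, the highest with 22 fragments and a fold of 3.98. Ugt8a, the galactosyltransferase of myelin lipid synthesis, had 3 summits, the highest in its flank (fold 3.40). Enpp6, a choline phosphodiesterase gene of newly formed oligodendrocytes, had 1 (fold 3.11). Neurofascin and several others on this list are also expressed by neurons.

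Of 18 other lineage regulators and precursor genes, 15 had a summit, beside 64.0% of protein-coding genes. In 9 of the 18 a summit had a q of 0.05 or less, beside 27.6% of protein-coding genes. Zfp488, a zinc finger regulator of oligodendrocyte differentiation, had a span summit with 20 fragments (fold 3.63). Lhfpl3 had 10 summits (1.76 per 100 kb) and Tcf7l2, an effector of Wnt signalling, had 5 (2.16 per 100 kb). Both reached a fold of 3.46, in the span of Lhfpl3 and in the flank of Tcf7l2, 5.49 kb outside its span. Among the same genes, Myrf, the transcription factor that maintains myelin gene expression, was named after its values were seen, with 5 summits in its window (6.90 per 100 kb). Of these, 1 lay in the span and 0 had a q of 0.05 or less.

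Lists for 2 other cell types of the cortex were counted in the same way. Beside the 8 of 10 lineage genes and 64.0% of protein-coding genes, 7 of 12 astrocyte genes had a summit. So did 10 of 12 transcription factor genes of cortical projection neurons. In each of these lists 5 of 12 had a summit with a q of 0.05 or less, beside 27.6% of protein-coding genes. Windows had a median length of 56.4 kb for the lineage genes, 51.7 kb for astrocyte genes and 92.5 kb for projection neuron factors. The share of protein-coding genes with a summit was 42.1% in the quintile of shortest windows and 87.0% in that of longest. Densities were 2.78 per 100 kb for the lineage genes (1.67 to 4.34), 2.28 for astrocyte genes (1.55 to 3.23) and 2.39 for projection neuron factors (1.69 to 3.28), with overlapping intervals. The other lists of the oligodendrocyte lineage had lower densities than all of these. They were 2.10 for the 15 myelin and oligodendrocyte genes (1.38 to 3.05) and 1.85 for the 18 regulators and precursor genes (1.46 to 2.31). Among astrocyte genes, Gfap, Aldoc, Gjb6 and Nfia tied at a fold of 3.46, the same as the highest of the lineage genes. Aqp4, Gja1, Glul, S100b and Sox9 had no summit. Among projection neuron factors, Cux2 reached 3.80 and Rorb 3.63, while Bcl11a, Bcl11b and Cux1 tied at 3.11. Fezf2 and Neurod2 had no summit. No difference between the lists was tested.

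**Figure D4:**
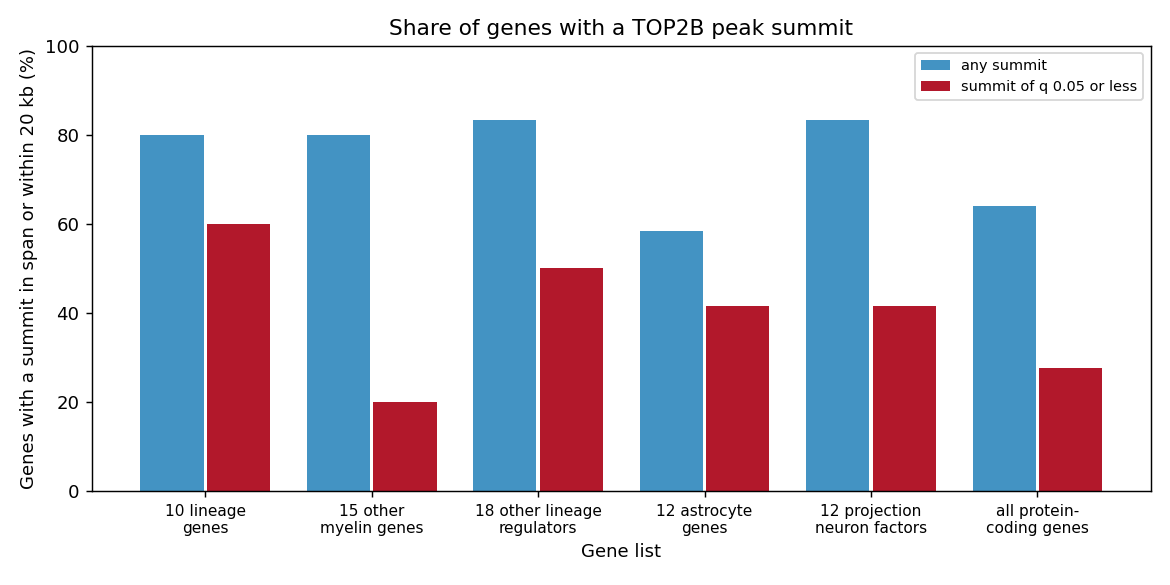
Percentage of genes in each list with a summit in the span or within 20 kb, for any summit and for summits of a deposited q of 0.05 or less; the lineage genes stand leftmost and all protein-coding genes rightmost. The lineage genes had 80% and 60%, and all protein-coding genes had 64.0% and 27.6%.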

How the data were processed

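The submitters' processing notes name FastQC, Trimmomatic, BWA, SAMtools and MACS2 without versions, and the builds mm10 and GRCm38.p6. The sources used here do not state how peaks were thresholded, whether duplicates were removed or which libraries entered the pool. Per the labels' protocols, TOP2B-bound DNA was recovered by native ChIP, and adapter-ligated DNA was digested with lambda exonuclease and linearly amplified. The authors deposited 1 narrowPeak list without a header, whose smallest −log10 p was 2.00. Its fold enrichment is a deposited linear ratio of pileup over control, taken here to have 1 added to each. The deposited −log10 p and −log10 q and the whole-number display score, which was not used, are the authors' as well.

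Summits were made 1-based. Fragments were reconstructed as the whole number for which pileup over control, with 1 added to each, gives the fold and the Poisson tail gives the p within 0.002 of −log10 p. This was unique for 35536 of 35539 entries, and depends on MACS2 conventions. Poisson intervals (95%) cover counting error only, and fragments may include amplification copies. Gene starts and ends are those of RefSeq on GRCm38.p6, and exon, intron and UTR classes were not analysed here. Strand came from the RefSeq promoter table. Entries on scaffolds were left out. Counting and reconstruction were tested on simulated data. Python 3.11.15, pandas 2.3.3, scipy 1.17.1 and matplotlib 3.10.9 were used.

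Genes and lists were chosen with earlier results of these data known. All members were named, with genes holding or next to their summits and, of each other list, the 3 genes of highest fold and ties. No test was made, since 1 pooled list holds no replicates.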

Additional observations from a re-analysis of the deposited data

How the results depend on the processing

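Genes with a summit, 8 as reported, numbered 6 to 10 under every planned setting except a q of 0.01 or less, which left 0. The number was 6 with a flank of 5 kb and 10 with 50 kb. It was 6 with only entries of q 0.05 or less and 7 with only folds at or above the list median. Over all protein-coding genes these 4 settings gave 46.0%, 80.6%, 27.6% and 47.2%. The 19 summits became 11 with a flank of 5 kb, 30 with 50 kb, 6 with q of 0.05 or less and 11 with folds at or above the median. The density was then 0.877 per 100 kb with the q limit and 1.61 with the fold limit, fewer entries being counted by construction. Genes with a summit in the span fell to 3 of 10 with either limit. End summits were found in 1 of the 10 genes within 500 bp (4.54% of protein-coding genes) and in 4 within 5 kb (29.4%). The median fold was 3.29 with the q limit. With a q of 0.01 or less, 0 of the 10 genes had a summit, beside 5.48% of protein-coding genes. Merging summits within 1 kb gave 8 genes, 18 summits, 2.63 per 100 kb and the same median fold. Counting the whole interval changed none of the results it was run for, which were genes with a summit, summits, density, span genes and end genes. Leaving out entries with more than 2 times the common control level could remove no summit here, since the highest level was 6.46. No paired analysis was possible because the list is pooled and has no columns for libraries. Depth per library is unknown, and with 13 to 19 fragments a summit, ranks among these peaks are not resolved.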
